A study of Mus musculus with 2 samples.

Results

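The cytosolic ribosomal proteins are the protein subunits of the ribosome in the cytoplasm, and 137 of the 41174 gene probes on the array carried their names. Members were chosen by gene name alone, as Rpl or Rps followed by a digit, or Rplp0, Rplp1, Rplp2 or Rpsa, leaving out the Rps6 kinases. They covered 82 of 27845 gene names. Of these, 45 named proteins of the large (60S) subunit and 31 proteins of the small (40S) subunit. The other 6 names (Rpl22l1, Rpl36al, Rpl3l, Rpl7l1, Rps27l and Rps19bp1) are paralogs or a binding partner of a subunit protein and are described apart.

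RNA came from the pancreatic lymph node, the node that drains the pancreas, of 16-week-old female NOD mice, a strain in which autoimmune diabetes develops spontaneously. The Cy5 channel of each of 2 arrays held 1 hyperglycemic mouse with blood glucose above 500 mg/dl. The Cy3 channel of both arrays held 1 pool of 2 euglycemic mice, also female, NOD and 16 weeks old, with blood glucose below 200 mg/dl. The submitters amplified and labelled 1 ug of RNA for each channel. Log2 ratios above 0 stand for more signal from the hyperglycemic mouse than from the pool.

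The pool is a single control sample, so the test of a ratio against 0 leaves out the spread among euglycemic mice. Both arrays shared 1 slide and the dyes were never swapped, so a dye effect on a single probe and the difference between the groups cannot be told apart. The median scanner signal was 37.7 and 38.2 in Cy5 over a background of 35 on both arrays, and 234 and 81.2 in Cy3 over 31 and 31.5. Signals below are the scanning software's processed intensities, which are background-subtracted and dye-normalized, and each gene is read from its brightest tested probe. They are given for array 1 and then array 2, and errors are SDs over the 2 hyperglycemic mice (n = 2).

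Nearly every ribosomal protein is present in a single copy per ribosome, and the mRNAs for them are among the most abundant in most cells. In vertebrates these mRNAs begin with a run of pyrimidines at the 5′ end, the terminal oligopyrimidine (TOP) tract, through which growth signals acting by way of mTORC1 set their translation. In lymphocytes, ribosome production increases when resting cells are activated and begin to grow.

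The starts of 7 members are shown because the pyrimidine tract is a sequence feature that members of different response have in common and that the choice by name did not use. Each window runs from 10 bases before to 20 bases from the annotated start, on the gene's strand, from RefSeq's GRCm38.p6, and capitals mark its longest run of C and T. Rpl38 and Rplp2 passed the test with higher signals in hyperglycemic mice, Rpl15 and Rpl18 passed it with lower signals, and Rps26, Rps6 and Rps9 did not pass.
Rpl38 (chr11:114668570-114668599, plus strand): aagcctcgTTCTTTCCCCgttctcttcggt
Rplp2 (chr7:141447641-141447670, plus strand): cagcgTCTTCCTTTCgccgccggacgccgc
Rpl15 (chr14:18270967-18270996, minus strand): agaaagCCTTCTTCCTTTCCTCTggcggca
Rpl18 (chr7:45718061-45718090, plus strand): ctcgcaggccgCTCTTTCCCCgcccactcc
Rps26 (chr10:128626487-128626516, minus strand): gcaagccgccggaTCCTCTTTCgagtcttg
Rps6 (chr4:86857348-86857377, minus strand): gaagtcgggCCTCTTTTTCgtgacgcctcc
Rps9 (chr7:3704031-3704060, plus strand): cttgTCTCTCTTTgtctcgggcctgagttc
The marked runs were 10, 10, 17, 10, 9, 10 and 9 bases long in that order.

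The table of gene starts held 64 starts of 55 subunit genes. At least 1 of the pyrimidine words CTCTTT, or CTTTCC, or CTTCCT stood within 50 bases on either side of the start, on the gene's strand, in 41 of the 64 starts (64.1%), against 14.4% of all 32851 starts in the table. These words partly overlap one another. On the opposite strand they stood in 6 of the 64 starts (9.38%), against 14.8% of all starts. The words were found at 5 of 7 starts of genes with a higher signal in hyperglycemic mice, at 5 of 7 starts of genes with a lower signal, and at 31 of 50 starts of genes that did not pass the test. These are 71.4%, 71.4% and 62% of starts, and the shares were not tested against each other.

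In the scanning software's ratios, the median ribosomal protein gene lay near 0 between hyperglycemic mice and the euglycemic pool, and single members passed the test in both directions. The level of the group depends on the normalization: its median log2 ratio was 0.60 with no dye normalization and 2.62 from scanner signals with normexp and loess, and no gene passed with a filter on 1 channel. Of 75 subunit genes tested, 7 rose and 8 fell in hyperglycemic mice at an adjusted p under 0.05, and 60 did not pass (limma, Benjamini-Hochberg over all 5068 tested probes). That is 20% of the genes, where 43.7% of all 4410 genes tested passed, 25.4% as higher and 18.2% as lower. In the scanning software's ratios, none of the 75 tested subunit genes changed by more than 2-fold (log2 of 1), against 12.2% of all genes. The mean log2 ratios of the 75 genes ran from −0.81 to 0.91 with a median of −0.066, beside a median of 0.065 over all genes. The median was −0.058 on array 1 and −0.082 on array 2.

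From scanner signals with normexp and loess, the log2 ratios of members ran from −0.67 (Rpl5) to 5.40 (Rplp1). In the scanning software's ratios, the members were closer to one another than genes in general. Their log2 ratios had an SD over genes of 0.37, against 0.67 over all genes and 0.69 over the 371 other genes in the brightest decile. In that decile 70 of the 75 members lay, and 157 of the 371 other genes there (42.3%) passed the test. The arrays gave similar values for a member, with a median difference between mice of 0.14 on the log2 scale. A log2 ratio above 0 was seen in both mice for 25 members, below 0 in both for 40, and the mice differed in sign for the rest. In bulk tissue, fewer cells of a type and less RNA per cell cannot be told apart.

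The median log2 ratio was −0.13 over 44 large-subunit genes and −0.046 over 31 small-subunit genes. The difference of medians, large minus small, was −0.014 on array 1 and −0.067 on array 2. It was −0.20 with no dye normalization and −0.66 from scanner signals with normexp and loess. Passing genes were 5 higher and 7 lower in the large subunit, and 2 higher and 1 lower in the small one. These are 27.3% of large-subunit and 9.68% of small-subunit genes, both below the 43.7% of all genes that passed. The difference in counts between the subunits was not tested.

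**Figure D1:**
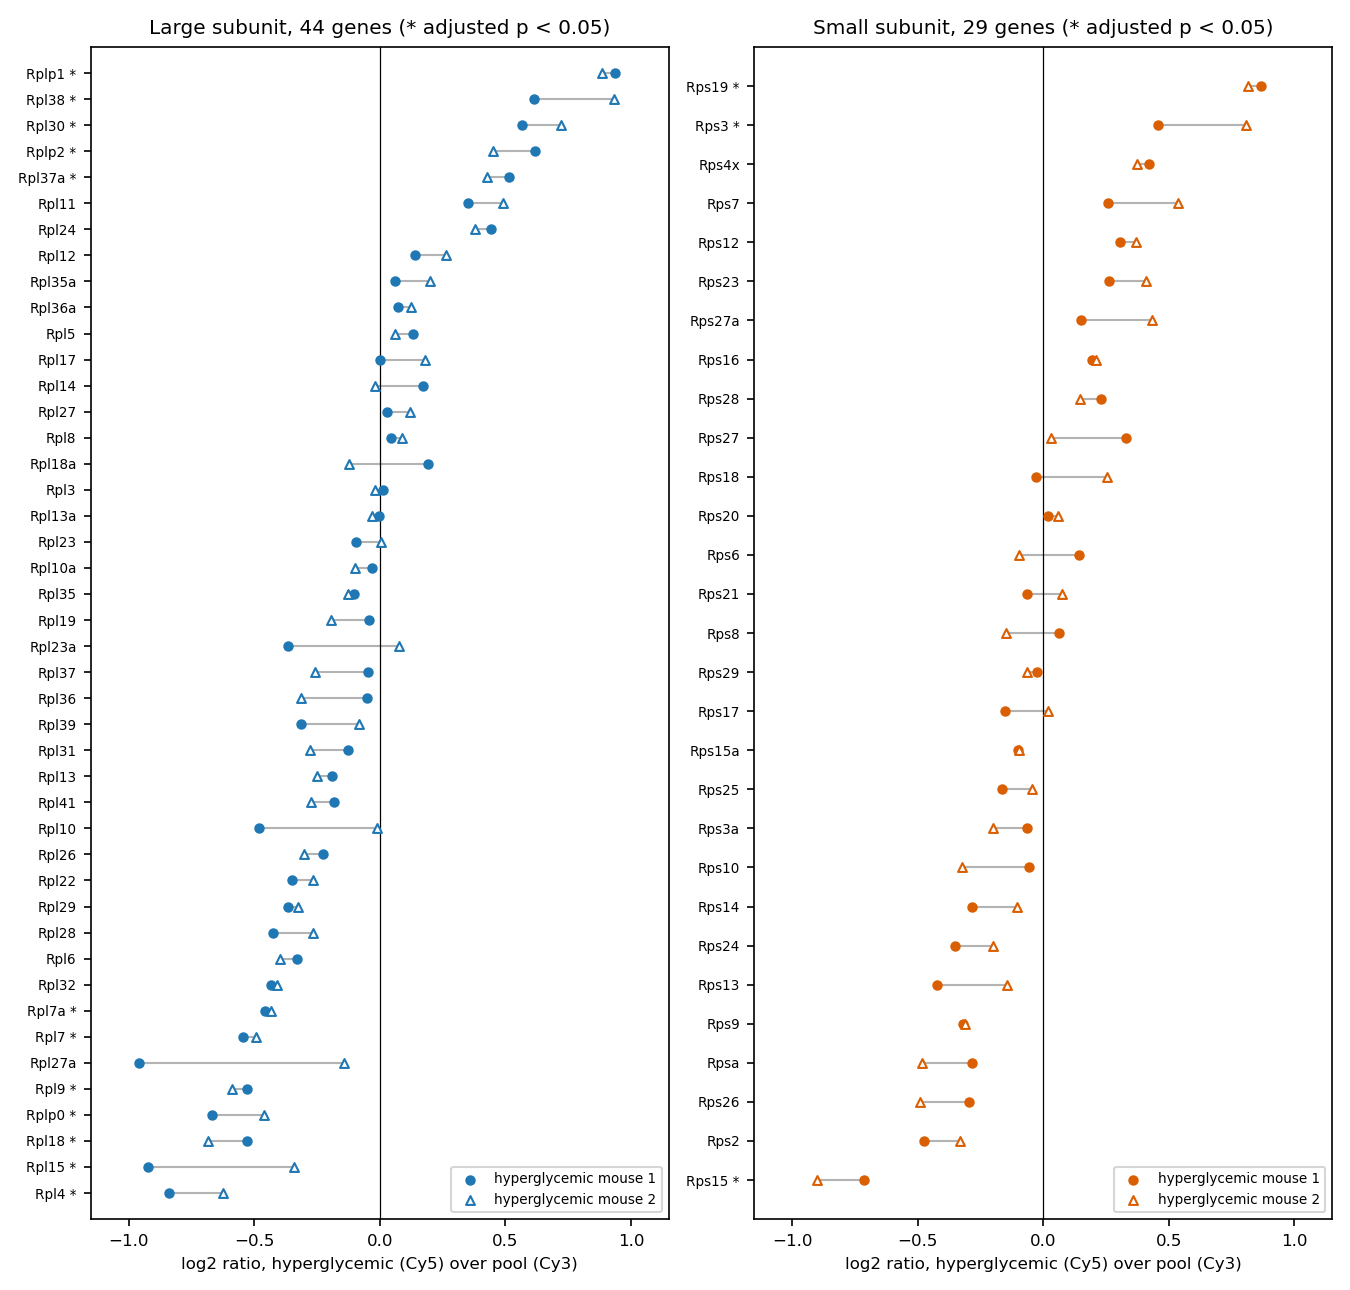
Log2 ratio of hyperglycemic mouse over euglycemic pool (x axis) for 73 of the 75 tested ribosomal protein genes, by subunit, with 1 point for each of the 2 mice, a line joining them, genes down the page in order of their mean and a star for an adjusted p under 0.05. Gene means in both subunits spread on either side of 0, from −0.73 to 0.91 in the large and from −0.81 to 0.84 in the small subunit.

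In the large subunit the 3 proteins of the P stalk, the arm that recruits translation factors, did not move together. Rplp1, an acidic protein at the tip of the stalk, had signals of 198414 and 248477 in hyperglycemic mice, against 103537 and 134613 in the pool. Both mice lay above the pool, by a log2 ratio of 0.91 ± 0.04 (1.88-fold, limma adjusted p = 0.0038), the highest of the 75 tested subunit genes. Rplp2, its partner at the tip, had signals of 151737 and 182559 in hyperglycemic mice, against 98780 and 133616 in the pool. It too was higher in both mice, by 0.53 ± 0.12 (1.45-fold, limma adjusted p = 0.0287). Rplp0, which anchors those proteins to the ribosome, had signals of 1470 and 2663 in hyperglycemic mice, against 2307 and 3610 in the pool. Both mice lay below the pool, with a log2 ratio of −0.57 ± 0.14 (1.48-fold lower, limma adjusted p = 0.0243). The Rplp0 probe was printed on 10 spots per array, and its spots gave log2 ratios from −1.01 to −0.43 on array 1 and from −0.84 to −0.12 on array 2, below 0 throughout. It was also less bright, at the 71.4th percentile of tested probes, whereas most members stood near the 98.0th. The probes lie at chr9:61711300-61711359 (Rplp1), chr7:141302601-141302660 (Rplp2) and chr5:115821920-115821979 (Rplp0) of build mm8, per the file annotation.

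A further 3 large-subunit genes rose. Rpl38, a small protein whose mutation in the Tail short mouse disturbs the axial skeleton, had signals of 88403 and 190446 in hyperglycemic mice, against 57723 and 99867 in the pool. Its log2 ratio was 0.77 ± 0.22 (1.71-fold, limma adjusted p = 0.00886), and the mice differed in size though not in direction. Rpl30, which in yeast represses the splicing of its own transcript, had signals of 14856 and 26858 in hyperglycemic mice, against 10029 and 16308 in the pool, a log2 ratio of 0.64 ± 0.11 (limma adjusted p = 0.0145). Rpl37a, a zinc-binding protein, had signals of 127522 and 154246 in hyperglycemic mice, against 89177 and 114622 in the pool, a log2 ratio of 0.47 ± 0.06 (limma adjusted p = 0.0415). All of these mice were above the pool.

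Rpl5 and Rpl11 bind 5S RNA before it joins the large subunit, and when ribosome assembly is disturbed they inhibit Mdm2, the ligase that keeps p53 low. Neither passed the test. Rpl11 had signals of 86070 and 138708 in hyperglycemic mice, against 67524 and 98604 in the pool, a log2 ratio of 0.42 ± 0.10 (limma adjusted p = 0.0618). Rpl5 had signals of 55302 and 71215 in hyperglycemic mice, against 50430 and 68340 in the pool, a log2 ratio of 0.10 ± 0.05 (limma adjusted p = 0.64).

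Besides Rplp0, 6 large-subunit genes fell. Rpl4, a protein that lines the exit tunnel for the new chain, had signals of 1684 and 3165 in hyperglycemic mice, against 3012 and 4883 in the pool, the lowest log2 ratio of the subunit at −0.73 ± 0.15 (1.66-fold lower, limma adjusted p = 0.00945). Rpl15, a core protein of the large subunit, had signals of 18019 and 49810 in hyperglycemic mice, against 34142 and 63112 in the pool. Its 2 mice were unequal, at log2 ratios of −0.92 and −0.34 (mean −0.63 ± 0.41, limma adjusted p = 0.0299), and its probe is placed on chromosome 12 in the mm8 annotation of the file while RefSeq has the gene on chromosome 14. Many ribosomal protein genes have processed copies elsewhere in the genome, and the part of such copies in a probe's signal was not tested.

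The other genes that fell were Rpl18, Rpl9, Rpl7 and Rpl7a. Rpl18 had signals of 16310 and 24033 in hyperglycemic mice, against 23514 and 38585 in the pool, a log2 ratio of −0.61 ± 0.11 (limma adjusted p = 0.0182). Rpl9, near the base of the stalk, had signals of 23632 and 33422 in hyperglycemic mice, against 34079 and 50322 in the pool, a log2 ratio of −0.56 ± 0.04 (limma adjusted p = 0.0229). Both genes were lower in both mice. Rpl7, named here after its values were seen, had signals of 28981 and 48616 in hyperglycemic mice, against 42334 and 68436 in the pool, a log2 ratio of −0.52 ± 0.04 (limma adjusted p = 0.0295). Rpl7a had signals of 57826 and 105188 in hyperglycemic mice, against 79321 and 142090 in the pool, a log2 ratio of −0.44 ± 0.02 (limma adjusted p = 0.0494), from its brightest probe only. Rpl27a, with signals of 459 and 1474 in hyperglycemic mice against 892 and 1628 in the pool, did not pass, and its mice differed widely, at −0.96 and −0.14 (limma adjusted p = 0.0731).

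In the small subunit 3 of 31 genes passed the test (9.68%, beside 43.7% of all genes). Rps19, the protein most often mutated in Diamond-Blackfan anaemia, had signals of 46654 and 65997 in hyperglycemic mice, against 25543 and 37495 in the pool. Both mice were above the pool at nearly the same ratio, 0.84 ± 0.04 on the log2 scale (1.79-fold, limma adjusted p = 0.0051). Rps15, which reaches towards the decoding centre, had signals of 8032 and 11739 in hyperglycemic mice, against 13164 and 21918 in the pool. It was the lowest of the 75 tested subunit genes, at a log2 ratio of −0.81 ± 0.13 (1.75-fold lower, limma adjusted p = 0.00642). Rps3, which sits where mRNA enters the ribosome, had signals of 88885 and 186214 in hyperglycemic mice, against 64702 and 106275 in the pool on its brightest probe, a log2 ratio of 0.63 ± 0.25 (limma adjusted p = 0.0195). Its second probe went the other way, as described with the other repeated probes. The probes lie at chr7:24597691-24597750 (Rps19), chr10:79696842-79696901 (Rps15) and chr7:99351979-99351992 (the mapped segment of Rps3) of mm8.

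The other small-subunit genes did not pass on their brightest probe, though dimmer probes of Rps2, Rps18 and Rps21 did. Rps6, whose phosphorylation by the S6 kinases is a common readout of mTORC1, had signals of 11143 and 18823 in hyperglycemic mice, against 10108 and 20135 in the pool. Its mice lay on opposite sides of the pool, at log2 ratios of 0.14 and −0.10. Rpsa, also known as a laminin-binding protein, had signals of 8171 and 12099 in hyperglycemic mice, against 9942 and 16925 in the pool, a log2 ratio of −0.38 ± 0.14 (limma adjusted p = 0.0845). Among the next highest, Rps4x, Rps7, Rps12 and Rps23 had log2 ratios of 0.40, 0.40, 0.34 and 0.34 (limma adjusted p from 0.0705 to 0.117). Among the next lowest, Rps2, Rps26 and Rps9 had −0.40, −0.39 and −0.32 (limma adjusted p from 0.07 to 0.131). Each of these 7 genes had the same sign in both mice. Rps18 and Rps23, with Rplp1 the brightest members, had log2 ratios of 0.11 ± 0.20 and 0.34 ± 0.10.

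Probes of the same gene often gave different ratios. Of the subunit genes, 24 had 2 or more tested probes, 56 probes in all. The range over a gene's probes had a median of 0.37 on the log2 scale, against a median of 0.23 for the largest difference between the 2 mice on any of those probes. The range over probes was the larger of these in 16 of 24 genes. It was over 0.5 in 8 genes and over 1 in 2, Rpl7a and Rps3, which were also the genes whose probes passed the test in both directions. By contrast, the 2 Rpl36 probes differed by 0.02.

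Rpl7a had 3 tested probes. Its brightest, at chr2:26735183-26735242 of mm8, was lower in both hyperglycemic mice (−0.44, above). A probe at chr2:26735229-26735287, sharing 14 bases with it, had signals of 6985 and 8062 in hyperglycemic mice, against 3438 and 4690 in the pool, a log2 ratio of 0.90 ± 0.17 (limma adjusted p = 0.00457). A probe at chr2:26733482-26733541 had signals of 11452 and 19759 in hyperglycemic mice, against 10514 and 19060 in the pool, a log2 ratio of 0.09 (limma adjusted p = 0.668). The direction of Rpl7a therefore depends on the probe read. The second Rps3 probe, at chr7:99356436-99356710, had signals of 9495 and 13704 in hyperglycemic mice, against 15131 and 22714 in the pool, a log2 ratio of −0.70 ± 0.04 (limma adjusted p = 0.00986), beside 0.63 on the brightest one. No direction can be given for either gene over all its probes.

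Other genes had all their probes on the same side. All 3 Rpl7 probes passed as lower, at log2 ratios of −0.52, −0.48 and −0.64, and both Rps19 probes passed as higher, at 0.84 and 0.50. Those were the only genes with every tested probe past the test in a single direction. In the small subunit, Rps18, Rps2 and Rps21 had probes on both sides of the threshold. Some large-subunit genes also had a dimmer probe that passed as lower while the brightest did not. The counts of passing genes in both subunits thus depend on the probe read. A dimmer Rps18 probe had signals of 28273 and 59197 in hyperglycemic mice, against 49268 and 89027 in the pool, a log2 ratio of −0.69 (limma adjusted p = 0.0115), beside 0.11 on its brightest probe. A dimmer Rps2 probe had signals of 15764 and 25247 in hyperglycemic mice, against 23847 and 36574 in the pool, a log2 ratio of −0.57 (limma adjusted p = 0.022), on the same side as its brightest probe. Of the 3 Rps21 probes 1 rose, at a log2 ratio of 0.60 (limma adjusted p = 0.0176), and the others had 0.01 and −0.22, although 2 of them share 42 bases.

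Over 39 pairs of probes of the same gene and chromosome, from 22 genes, the probe nearer the 3′ end had the higher log2 ratio in 23 pairs, with a median difference of 0.15 and a range from −0.64 to 1.35. The brighter probe had the higher ratio in 24 pairs, with a median difference of 0.16. Pairs of a gene share its transcript and its samples, so these counts are descriptions.

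**Figure D2:**
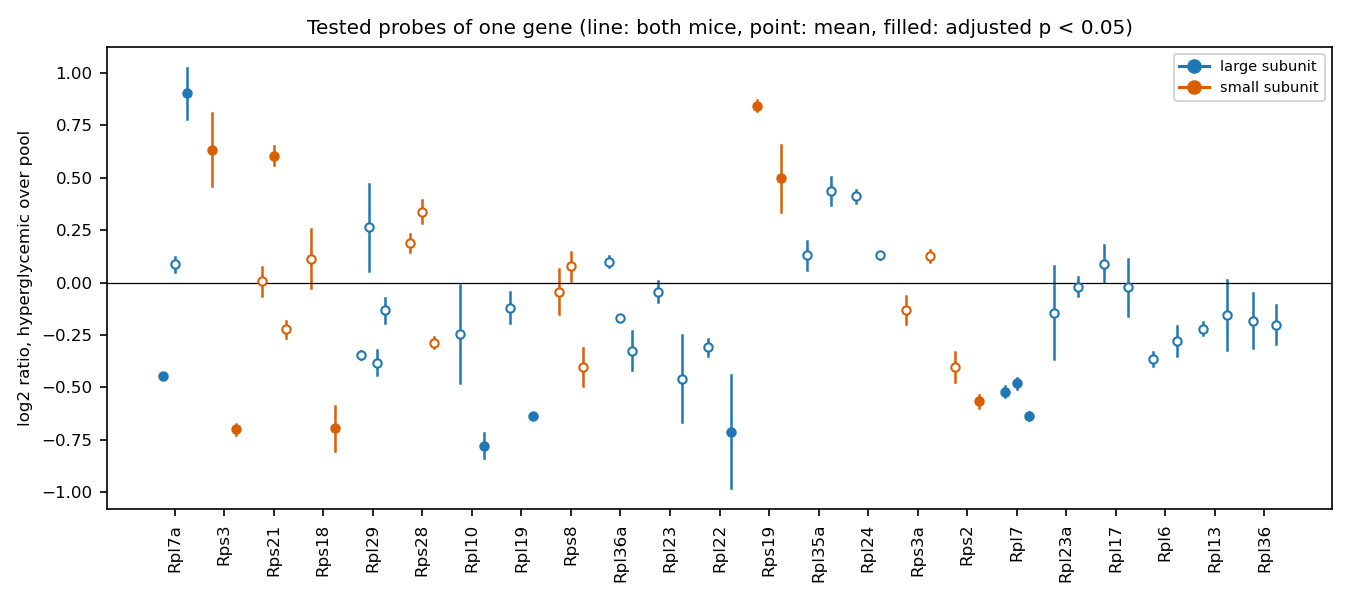
Mean log2 ratio of hyperglycemic mice over the euglycemic pool for every tested probe of 23 of the 24 ribosomal protein genes that had 2 or more, with a line joining the 2 mice, filled points for an adjusted p under 0.05 and genes in order of the range over their probes. The widest spreads are those of Rpl7a (1.35) and Rps3 (1.33), on both sides of 0, and that of Rpl36 (0.02) is the narrowest drawn.

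The ratio of a member went with its brightness. Over the 75 genes, the log2 ratio and the mean log2 intensity had r = 0.39 and rho = 0.46, against r = −0.05 and rho = −0.11 over all 4410 genes. The genes of a sample share their labelling and their array, so these are descriptions. The 38 brighter members had a median log2 ratio of 0.053, with 5 rising and 1 falling, and the 37 dimmer ones had −0.20, with 2 rising and 7 falling. Of all genes 25.4% rose and 18.2% fell, and the difference between the brighter and dimmer members was not tested.

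This relation was closer when both the background correction and the dye normalization of the scanning software were replaced. Before any normalization the Cy5 signal of members was far below the Cy3 signal, with Rplp1 at 6782 and 6555 in Cy5 for hyperglycemic mice, against 147422 and 75075 in Cy3 for the pool. These scanner signals were then taken through normexp background correction and loess within each array. On these values, brightness and log2 ratio had r = 0.85 and rho = 0.94 over the 75 genes. The median log2 ratio of the 75 was 2.62 in place of −0.066. The 371 other genes of the brightest decile also had a raised median on these values, at 1.27, against 0.01 over all 4410 genes. Those 371 genes were less bright than the 75 members, at a median percentile of 94.4 against 98.0, so the medians are not matched for brightness. Rplp1 then had a log2 ratio of 5.40 and Rplp2 one of 4.75. Of the 8 genes that fell, 6 turned positive on these values, and 0 of the 75 passed as lower. Among those 6, Rpl15 passed as higher (1.61, limma adjusted p = 0.0343). Of the 7 genes that rose, 3 still passed. As higher, 9 of the 75 passed, beside 2.24% of all genes. Without regard to direction, 69 of the 75 had an unadjusted p under 0.05 in limma on these values. A few members stayed below 0, among them Rpl4 (−0.43) and Rplp0 (−0.32). Rpl5 was the lowest, at −0.67, with log2 ratios of −3.39 and 2.06 on the 2 arrays. Its local background on array 1 was 3862 in Cy5 and 1600 in Cy3, against 37 and 36 on array 2.

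**Figure D3:**
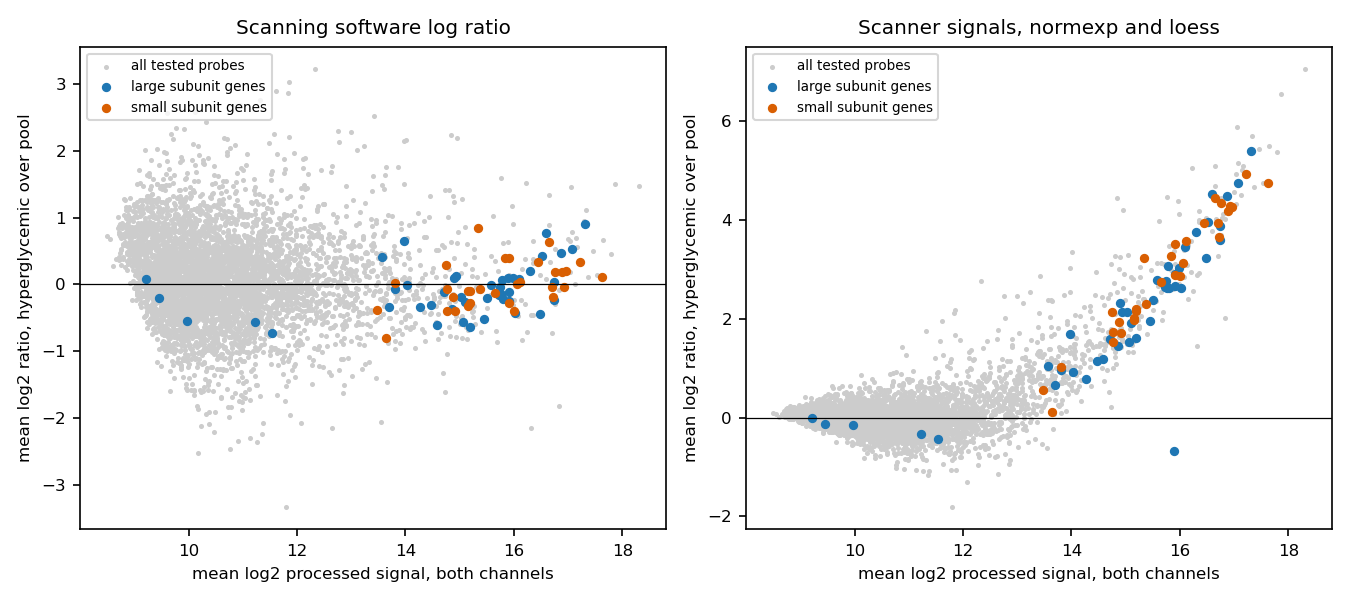
Log2 ratio of hyperglycemic mice over the euglycemic pool against mean log2 intensity, with ribosomal protein genes drawn over all tested probes. On the left are the scanning software's ratios, where members lie around 0 at the bright end, and on the right ratios from scanner signals after normexp and loess, where members climb with brightness (rho = 0.94).

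The level of the whole group relative to other genes thus changed with the normalization. A further loess of the software's ratios on intensity left 5 of the 7 rising and all 8 falling genes past the test. There 5 members passed as higher and 11 as lower, beside 23% and 21.2% of all genes. Without dye normalization, each array centred on its median, all 7 rising genes still passed, 3 of the 8 falling genes did (Rps15, Rpl4 and Rplp0), and the group median was 0.60. In that setting 49 members passed as higher and 4 as lower, beside 24.9% and 22% of all genes. Rpl7a, a falling gene in the software's ratios, passed there as higher (0.70, limma adjusted p = 0.00579). Rplp0 and Rpl4 were below the pool under each of the 4 processings drawn for the genes that passed. From normexp and loess neither of these 2 genes passed (limma adjusted p = 0.183 and 0.128). Both are dim for members, at the 71.4th and 77.2th percentiles of brightness, and on those values the ratio rose with brightness. With a filter that asked for a signal in only 1 channel, none of the 7303 genes tested passed in limma, members included, although 10 members had an unadjusted p under 0.05. The share of all genes that passed as higher or lower was 24.1% and 21.8% with median centring, 26.3% and 19.7% when the variance followed an intensity trend, and 25.4% and 18.6% with the mean over a gene's probes.

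**Figure D4:**
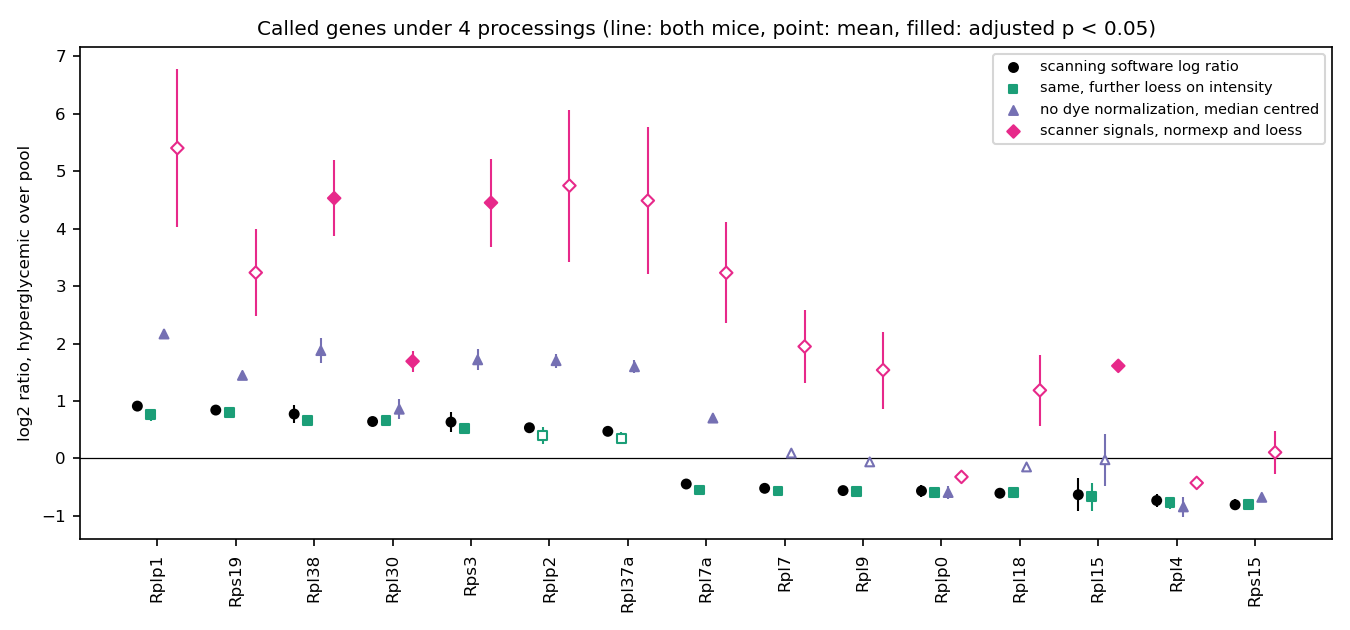
Mean log2 ratio of hyperglycemic mice over the euglycemic pool for the 15 ribosomal protein genes that passed the test, under 4 processings, with a line joining the 2 mice and filled symbols for an adjusted p under 0.05. Rplp1 to Rpl37a stay above 0 under each processing shown, Rplp0 and Rpl4 stay below 0, and the other falling genes move up on scanner signals.

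Of the paralogs and related names 4 were tested and 1 passed (25%, beside 43.7% of all genes). Rps19bp1, a protein that binds Rps19 in the nucleolus, fell. It had signals of 470 and 772 in hyperglycemic mice, against 724 and 1286 in the pool, a log2 ratio of −0.68 ± 0.08 (limma adjusted p = 0.0114). Rps27l, a p53-inducible paralog of Rps27, had a log2 ratio of 0.30 (adjusted p = 0.192 in limma), and Rpl22l1 and Rpl36al had −0.13 and −0.33.

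In all, 26 of the 137 member probes were not tested, 25 of them because Cy5 was not well above background on either array, and 21 belonged to genes read from another probe. That left Rpl21, Rpl3l and Rpl7l1 without a test. Rpl21 had signals of 735 and 933 in hyperglycemic mice, against 225 and 467 in the pool, where Cy3 was well above background on only 1 array. Rpl7l1, a paralog of Rpl7, was not well above background in hyperglycemic mice on either array. Its brighter probe had signals of 139 and 363 there, against 613 and 877 in the pool. The pool was 2.08-fold above a floor for Cy5, as a mean over the arrays. That floor is the higher, on each array, of the lowest Cy5 signal well above background and the probe's own Cy5 signal. The probe had a limma adjusted p of 0.0689 under the filter on 1 channel. A second Rpl7l1 probe, also dim in Cy5, had log2 ratios of 1.32 and −1.23, so no direction is given for the gene. Rpl3l, the form of Rpl3 found in heart and skeletal muscle, was not well above background in hyperglycemic mice on either array, and in the pool it was on 1. No member probe was saturated (0 probes).

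Markers of several cell types moved beside these values. All 5 tested T-cell genes of 8 on the array fell, with a median log2 ratio of −1.21, and their summed signals were 7545 and 11412 in hyperglycemic mice, against 17735 and 27195 in the pool. Cd2, Cd3e and Cd4 were not tested. Of 3 tested B-cell genes 2 fell (median −0.48), with sums of 10594 and 17846 in hyperglycemic mice against 15981 and 25594 in the pool. Of 7 exocrine pancreas genes 5 rose (median 0.70), with sums of 999413 and 1713571 in hyperglycemic mice against 704446 and 972404 in the pool. All 3 red-cell genes rose (median 1.17), with sums of 112013 and 184708 in hyperglycemic mice against 49155 and 80709 in the pool. Of 2 tested node stroma genes 1 fell. Of 2 tested adipocyte genes, Cfd fell (−1.63), while Fabp4 had 0.47 and did not pass (limma adjusted p = 0.0545). Beside these counts, 25.4% of all 4410 genes tested rose and 18.2% fell. The part of these cell types in the ribosomal protein ratios was not tested.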

How the data were processed

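Version 10.7.3.1 of Agilent Feature Extraction made the files, per the file headers, which give raw intensity for each spot and its surroundings. The processed intensity had background subtracted and dyes normalized by the authors' software, again per the file headers. The deposited log ratio is log10 of Cy5 over Cy3, multiplied here by 3.32193 for log2. The deposited value table holds the same values as log2 ratios (5071 of 5072 gene probes equal within 0.01). Probe positions are those of mm8, per the file annotation.

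Outlier spots were left out and spots of a probe averaged. Probes that both arrays found well above background in Cy5 and Cy3 alike (5068 probes, 4410 genes) were tested with limma 3.58.1 in R 4.3.3, mean log2 ratio against 0, two-sided, 1 residual degree of freedom, Benjamini-Hochberg, threshold 0.05. The number of arrays limits the precision, and the labels do not say more of how the mice were chosen. Scripts were tested on simulated data.

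Genes named in full were the 6 highest and 6 lowest of each subunit with equal sign on both arrays, the P stalk, Rpsa, Rps6, Rpl5, Rpl11, genes whose probes differ by over 1 in log2 ratio, and the 3 brightest. Some genes are counted in the totals but not reported here by name. Members, lists and this rule were chosen with earlier results of these data known. Alternatives were the filter, normexp (offset 50) with loess (span 0.3), no dye normalization, median centring, a further loess, the deposited table, an intensity trend in the variance, the mean over probes, and each mouse alone.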

Additional observations from a re-analysis of the deposited data

How the results depend on the processing

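No paired analysis was possible because a single pool served as control on both arrays. The number of subunit genes called higher, 7 of 75 beside 25.4% of all genes, was 0 with a filter on 1 channel (0% of all genes), 49 with no dye normalization (24.9%) and 11 when the variance followed an intensity trend (26.3%). The number called lower, 8 beside 18.2% of all genes, was 0 with the filter on 1 channel (0%), 0 from normexp and loess (0%), 4 with no dye normalization (22%), 14 with median centring (21.8%) and 16 with the intensity trend (19.7%). The median log2 ratio of all 75 genes, −0.066, became 2.62 with normexp and loess, 0.60 with no dye normalization, −0.12 with median centring, −0.14 with a further loess and −0.10 as the mean of probes, and single mice gave −0.082 and −0.058. The large-subunit median, −0.13, became 2.23, 0.54, −0.19 and −0.20 under the first 4 of these, and −0.11 and −0.072 in single mice. The small-subunit median, −0.046, became 2.89, 0.75, −0.10 and −0.10, and −0.045 and −0.058 in single mice. The difference of medians, −0.085, became −0.66 with normexp and −0.20 with no dye normalization, and −0.067 and −0.014 in single mice. Among the 15 genes that passed, log2 ratios that turned sign with normexp were Rpl15 (1.61), Rpl18 (1.19), Rpl7a (3.23), Rpl9 (1.54), Rpl7 (1.95) and Rps15 (0.11), with no dye normalization Rpl7a (0.70) and Rpl7 (0.09), and as the mean of probes Rpl7a (0.18) and Rps3 (−0.033). Genes that did not pass also turned sign, among them Rps2 with no dye normalization (0.55). The deposited table, which holds the same ratios, kept all 15 calls, and median centring kept 14. Further loess kept 13 of the 15, no dye normalization 10, normexp with loess 3 and the filter on 1 channel 0. The cause of these shifts was not tested. Cy5 signals near background limit what dim members can show.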

Other observations

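Genes outside the ribosomal protein names whose mRNAs also carry a TOP tract, mostly translation factors, formed a list of 17 tested genes. Of these, 1 rose and 1 fell, where 25.4% of all genes rose and 18.2% fell, and the median log2 ratio was −0.18. Npm1, a nucleolar chaperone of ribosome assembly, had signals of 14186 and 22517 in hyperglycemic mice, against 10864 and 15698 in the pool, a log2 ratio of 0.45 ± 0.10 (limma adjusted p = 0.0488). Eef1g, a subunit of elongation factor 1, had signals of 11759 and 18595 in hyperglycemic mice, against 16143 and 26076 in the pool, a log2 ratio of −0.47 ± 0.02 (limma adjusted p = 0.0407). Fau, which encodes a ribosomal protein fused to a ubiquitin-like sequence, had −0.22, and Gnb2l1, the scaffold protein Rack1 of the small subunit, had 0.37, and neither passed. Tpt1 had log2 ratios of 0.19 and 0.99 in the 2 mice.

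Of 32 ribosome biogenesis genes on the array 13 were tested, with a median log2 ratio of 0.06. Only 1 of them passed, as lower, where 25.4% of all genes rose and 18.2% fell. Nola3 (Nop10), a part of the H/ACA particles that modify ribosomal RNA, had signals of 882 and 1607 in hyperglycemic mice, against 1970 and 3230 in the pool, a log2 ratio of −1.08 ± 0.11 (limma adjusted p = 0.00225). The other 19 genes, Myc among them, lacked a probe well above background in each channel of each array.

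The words CGGAAG or CTTCCG, the core of binding sites of ETS-family factors, stood within 50 bases of the start in 21 of 64 ribosomal protein starts (32.8%), against 9.12% of all starts. They stood at 3 of 7 starts of genes higher in hyperglycemic mice, 1 of 7 of genes lower and 17 of 50 of genes that did not pass.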
